A study of Mus musculus with 6 samples.

Results

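The genes described here are mitochondrial proteases and their core subunits: Immp1l, Immp2l, Lonp1, Clpp, Clpx, Afg3l2, Spg7, Yme1l1, Oma1 and Htra2. These 10 genes were taken from the 21730 genes with a read in any library, through the transcripts that GENCODE M21 assigns to them. Of their 51 annotated transcripts 37 had a read. Immp2l was chosen by its measured level in this same contrast, since its lower level in the cold was already known from these data, so its own difference is given as a description with no test. The other 9 were added as its relatives in function, again with results of these data known.

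The study sequenced cDNA from interscapular brown adipose tissue (BAT) of male wild-type C57BL/6N mice aged 20 weeks on Oxford Nanopore flow cells. The cold group was 3 mice (numbers 4, 11 and 15) kept singly at 4 °C for 24 h, and the control group was 3 mice (numbers 2, 9 and 14) from a colony held at 22 to 24 °C. The labels do not say how the control mice were housed during those 24 h, so temperature and single housing cannot be told apart. No mouse carried a deletion or transgene. Each mouse gave 1 library, read on 2 flow cells whose read counts were summed, and p-values measure the spread between these mice.

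Mitochondria carry their own proteases in each compartment. In the matrix, Lonp1 and the ClpXP complex of Clpx and Clpp unfold and degrade proteins. In the inner membrane, the m-AAA protease of Afg3l2 and Spg7 works on the matrix side, the i-AAA protease Yme1l1 and the stress-activated peptidase Oma1 work toward the intermembrane space, and the inner membrane peptidase of Immp1l and Immp2l removes the sorting signals of proteins bound for that space, where the serine protease Htra2 resides. Brown adipocytes are packed with mitochondria and burn fuel for heat through Ucp1, and cold is the usual stimulus for this.

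The libraries held 1657985 to 2238056 reads and 15661 to 16418 genes with a read, so that 3 reads equal 1.34 to 1.81 counts per 1000000 reads (CPM, with library sizes scaled by the trimmed mean of M-values, TMM). Ucp1, the uncoupling protein that defines brown fat, was at 9700 to 13890 CPM in all 6 libraries. Across all genes, 1739 of 8684 tested (20.0%) passed an adjusted p of 0.05 in edgeR's quasi-likelihood test, 869 higher and 870 lower in cold mice, and DESeq2 called 7.61% of 10776. The summed level of 13 skeletal muscle markers was 90.8 to 633.7 CPM in control and 285.5 to 3611 CPM in cold libraries. None of the 11 muscle genes tested passed in edgeR (0 had an unadjusted p under 0.05), 1 passed in DESeq2, and their median log2 difference was 2.21. The tissue was measured in bulk, so fewer cells of a type and less RNA per cell cannot be told apart.

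Of the 9 members other than Immp2l, all of which were tested, 3 passed: Clpx was higher in cold mice, Spg7 and Htra2 were lower, and 6 did not pass. Set beside the 20.0% of all genes called, nothing is read from this count, because the set was built around this contrast. The groups did not overlap for these 3 genes and Immp2l, while 35.1% of all tested genes had groups that did not overlap. The median log2 difference was -0.06 over the members and 0.001 over all tested genes.

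**Figure D1:**
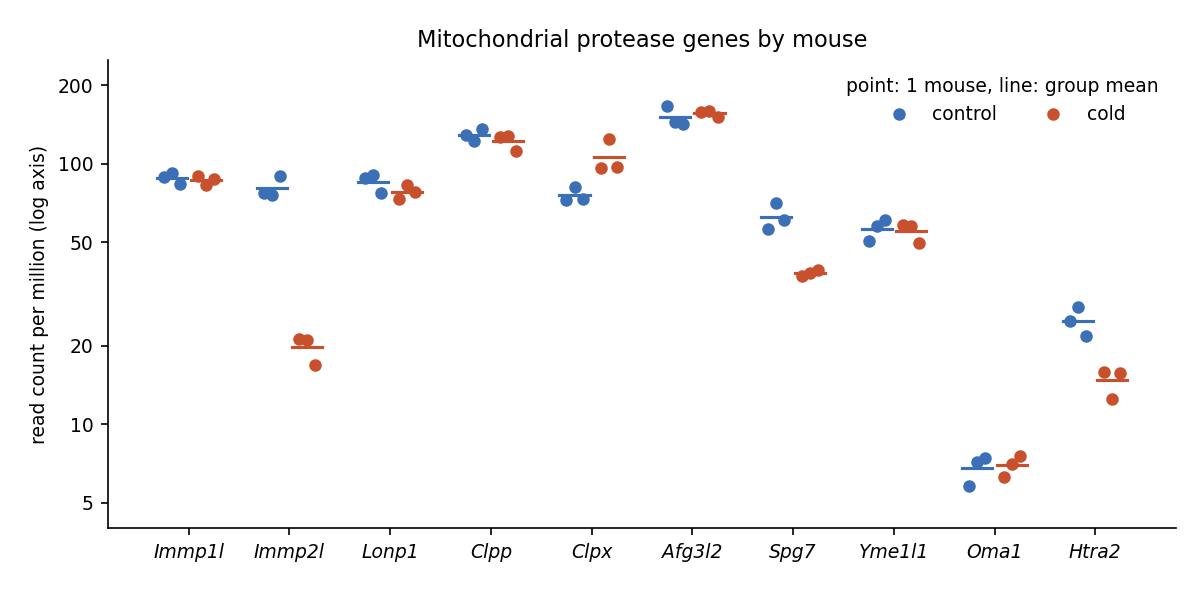
TMM-scaled CPM of each mitochondrial protease gene in every mouse, on 1 log axis, with control and cold mice as points and the group mean as a line. Immp2l lies at 76.0 to 89.3 CPM in control and 16.9 to 21.3 CPM in cold mice, and its partner Immp1l overlaps between the groups.

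Immp2l encodes a catalytic subunit of the inner membrane peptidase. It had 134, 149 and 192 reads in control mice 2, 9 and 14 and 44, 42 and 29 reads in cold mice 4, 11 and 15. These are 77.5, 76.0 and 89.3 CPM in control and 21.3, 21.04 and 16.9 CPM in cold mice. Every cold mouse was therefore below every control mouse, and the highest cold value stood far under the lowest control value. The means were 81.0 ± 7.29 CPM (SD, n = 3) and 19.7 ± 2.46 CPM (SD, n = 3), a log2 difference of -2.03 with a standard error of 0.14, or 4.08-fold lower in the cold. Only 19 of the 8684 tested genes had a larger fall.

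The fall of Immp2l was present on each flow cell taken alone. The first flow cell gave 81, 103 and 130 reads in control and 27, 26 and 19 in cold mice, a log2 difference of -2.085. The second gave 53, 46 and 62 against 17, 16 and 10 reads, a log2 difference of -1.94. Over all 14 alternative settings the difference lay between -2.086 and -1.933.

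Immp2l (ENSMUSG00000056899.10) spans chr12:41024090-41955588 on the plus strand of GRCm38, 931499 bases, and is a gene made almost wholly of introns. Its main transcript Immp2l-202 has 7 exons with 1147 bases, 0.123% of the span, and the intron between exons 4 and 5 alone measures 517820 bases. The 528 coding bases lie in exons 3 to 7 and are the same in Immp2l-202 and Immp2l-203. They are shown because these 5 exons are the message whose level fell. The lines run 5′ to 3′ on the plus strand, with the start and stop codons in capitals, from chr12:41068312-41068446, chr12:41110840-41110943, chr12:41628764-41628829, chr12:41703655-41703757 and chr12:41954981-41955100.
Immp2l exon 3: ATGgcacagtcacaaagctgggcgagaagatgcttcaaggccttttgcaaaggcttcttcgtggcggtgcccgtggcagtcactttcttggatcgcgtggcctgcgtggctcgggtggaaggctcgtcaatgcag
Immp2l exon 4: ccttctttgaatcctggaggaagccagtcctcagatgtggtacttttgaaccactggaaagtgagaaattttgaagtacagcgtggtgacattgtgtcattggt
Immp2l exon 5: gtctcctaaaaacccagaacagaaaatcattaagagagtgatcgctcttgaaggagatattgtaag
Immp2l exon 6: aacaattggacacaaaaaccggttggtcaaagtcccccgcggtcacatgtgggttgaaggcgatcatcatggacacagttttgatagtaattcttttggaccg
Immp2l exon 7: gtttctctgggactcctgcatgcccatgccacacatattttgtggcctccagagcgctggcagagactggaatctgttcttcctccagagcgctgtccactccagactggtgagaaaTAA

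Nearly all of the reads came from that transcript. Immp2l-202 took 91.9% of the gene's reads over all libraries, with 121, 138 and 178 reads in control and 41, 41 and 23 in cold mice. It was 4.14-fold lower in the cold, a log2 difference of -2.05 with a standard error of 0.16, which is the gene-level difference seen in its main transcript. Immp2l-203, which has the same coding exons, had 12, 9 and 11 reads in control and 2, 1 and 2 in cold mice and was too low to be tested. Immp2l-204 and Immp2l-205 had 3 reads each over the control mice, with 2 and 3 over the cold mice, and Immp2l-201 had none in any library.

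The neighbours looked at, Lrrn3 inside Immp2l and Dock4 before its start, were almost silent. Genes beyond its end were not looked at. Lrrn3, a neuronal leucine-rich repeat gene on the opposite strand at chr12:41451668-41486431, lies inside an Immp2l intron, shares 0 exon bases with it and had 2, 1 and 2 reads in control and 0, 0 and 0 in cold mice. Dock4, a guanine nucleotide exchange factor whose end lies 177216 bases before the Immp2l start, had 7, 5 and 3 reads in control and 8, 5 and 10 in cold mice. No annotated gene shared exon bases with Immp2l.

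Immp1l is the partner subunit of the same peptidase, at chr2:105904638-105965558. Its level was 88.5, 91.9 and 83.8 CPM in control and 89.4, 82.7 and 87.3 CPM in cold mice, so the groups overlapped fully. The log2 difference was -0.03 with a standard error of 0.11 (adjusted p = 0.906, edgeR). Per kilobase of transcript, the ratio of Immp2l to Immp1l reads was 0.743, 0.703 and 0.905 in control and 0.202, 0.216 and 0.164 in cold mice. The mean ratio was 0.784 ± 0.107 (SD, n = 3) in control and 0.194 ± 0.0269 (SD, n = 3) in cold mice.

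**Figure D2:**
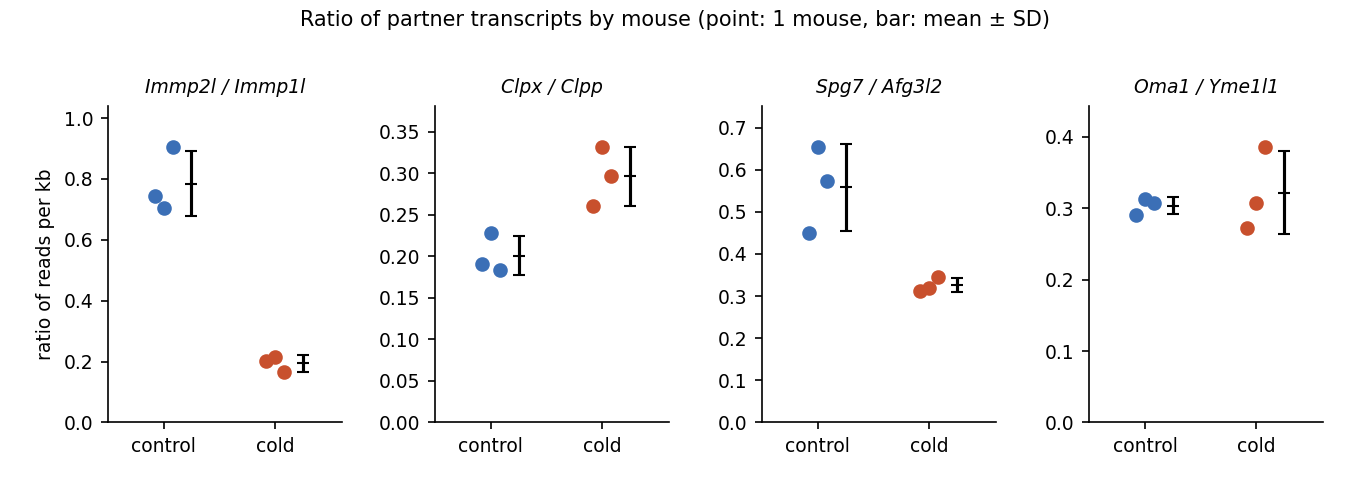
Ratio of reads per kilobase between partner subunits in each mouse: Immp2l to Immp1l, Clpx to Clpp, Spg7 to Afg3l2 and, for a pair of enzymes rather than subunits, Oma1 to Yme1l1. Points are mice and bars the mean ± SD; Immp2l to Immp1l and Spg7 to Afg3l2 are lower and Clpx to Clpp higher in every cold mouse than in any control mouse, and Oma1 to Yme1l1 overlaps between the groups.

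Among the matrix proteases, Lonp1, an ATP-dependent protease that removes oxidised and misfolded proteins (chr17:56614297-56626887), had 87.9, 90.8 and 77.2 CPM in control and 73.4, 82.7 and 78.02 CPM in cold mice. The groups overlapped, and the log2 difference of -0.13 with a standard error of 0.11 did not pass the test (adjusted p = 0.487, edgeR). Clpp, the proteolytic chamber of ClpXP (chr17:56990305-56996188), had 129.0, 122.5 and 135.9 CPM in control and 126.6, 128.2 and 111.8 CPM in cold mice. These values overlapped as well, with a log2 difference of -0.08 (adjusted p = 0.657, edgeR).

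Clpx, the unfoldase that feeds substrates into Clpp and also activates the first enzyme of haem synthesis, rose. It had 72.3, 81.7 and 73.0 CPM in control and 96.6, 124.7 and 97.2 CPM in cold mice. Every cold mouse was above every control mouse, and cold mouse 11 was the highest. The means were 75.7 ± 5.19 CPM (SD, n = 3) and 106.2 ± 16.1 CPM (SD, n = 3), 1.40-fold higher in the cold with a log2 difference of 0.49 and a standard error of 0.12 (adjusted p = 0.00256, edgeR). Without cold mouse 11 the log2 difference was 0.36 (adjusted p = 0.0441), and the call held under all 14 alternatives, whose adjusted p lay between 0.00057 and 0.0441. The ratio of Clpx to Clpp per kilobase was 0.191, 0.228 and 0.184 in control and 0.261, 0.332 and 0.297 in cold mice.

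The rise of Clpx was spread over its transcripts. Clpx (chr9:65294260-65330658, plus strand) was read as Clpx-201, with 68.0% of its reads, and Clpx-202, which lacks exon 6 of the 14 exons of Clpx-201, a stretch of 42 bases at chr9:65312098-65312139. The annotated lengths are 2885 bases for Clpx-201 and 2809 for Clpx-202, so these forms also differ outside that exon. Exon 6 is shown in capitals with 24 exon bases to either side, above the same junction without it. It is the only inner exon that differs between them.
Clpx-201: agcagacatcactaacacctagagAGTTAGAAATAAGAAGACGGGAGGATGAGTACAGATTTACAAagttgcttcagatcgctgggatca
Clpx-202: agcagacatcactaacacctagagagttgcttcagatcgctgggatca
Clpx-201 took 67.6 ± 2.25% of the gene's reads in control and 68.2 ± 0.765% in cold mice (SD, n = 3 each). Clpx-202 took 31.7 ± 1.62% and 30.7 ± 0.914%. Tested as transcripts, Clpx-201 had a log2 difference of 0.49 (adjusted p = 0.00626, edgeR) and Clpx-202 one of 0.44 (adjusted p = 0.0859, edgeR). The first call was lost on the second flow cell alone (adjusted p = 0.105), with a muscle covariate (adjusted p = 0.0689), in DESeq2 (adjusted p = 0.102) and without cold mouse 11 (adjusted p = 0.0837).

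The m-AAA protease differed between its subunits Afg3l2 and Spg7. Afg3l2, which can form the protease on its own, had 166.6, 144.4 and 141.9 CPM in control and 158.5, 158.8 and 150.8 CPM in cold mice, which overlapped (log2 difference 0.05, adjusted p = 0.783, edgeR). Spg7, the paraplegin subunit, had 56.1, 70.9 and 60.9 CPM in control and 37.2, 38.1 and 39.0 CPM in cold mice. Its cold values lay close together and below all control values. Spg7 fell 1.65-fold, from 62.7 ± 7.55 CPM (SD, n = 3) to 38.1 ± 0.906 CPM (SD, n = 3), a log2 difference of -0.72 with a standard error of 0.13 (adjusted p = 0.000134, edgeR). The call held under all 14 alternatives, whose adjusted p lay between 1.27e-05 and 0.0134. The ratio of Spg7 to Afg3l2 per kilobase was 0.449, 0.654 and 0.572 in control and 0.313, 0.319 and 0.345 in cold mice.

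Spg7 lies at chr8:123062942-123097760 and was read as many forms. Spg7-209, with 47.7% of the reads, had 42, 72 and 60 reads in control and 43, 29 and 34 in cold mice, a log2 difference of -0.71 (adjusted p = 0.00867, edgeR). This transcript call was lost on the first flow cell alone (adjusted p = 0.122), in DESeq2 (adjusted p = 0.219) and without control mouse 9 (adjusted p = 0.123) or cold mouse 11 (adjusted p = 0.0822). Spg7-202, with 56 and 37 reads in the groups, and Spg7-213, with 43 and 20, did not pass (adjusted p = 0.24 and 0.0524, edgeR), although Spg7-213 passed without cold mouse 11 (adjusted p = 0.0217). Each of these 3 transcripts had fewer reads in the cold group.

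Of the enzymes facing the intermembrane space, Yme1l1 (chr2:23156369-23199260), the i-AAA protease that turns over lipid transfer and import proteins, had 50.3, 57.7 and 60.9 CPM in control and 58.0, 57.6 and 49.5 CPM in cold mice. Oma1 (chr4:103313812-103371868), which cleaves the fusion protein Opa1 and the stress messenger Dele1, was the lowest member, at 5.79, 7.14 and 7.44 CPM in control and 6.28, 7.01 and 7.57 CPM in cold mice. Neither passed the test, with log2 differences of -0.03 (adjusted p = 0.889) for Yme1l1 and 0.02 (adjusted p = 0.982) for Oma1 in edgeR. Oma1 rested on 40 reads in each group and its standard error was 0.32 on the log2 scale, the widest of the 10 members. The ratio of Oma1 to Yme1l1 overlapped between the groups.

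Htra2, a serine protease of the intermembrane space that is known for a role in cell death when released, had 24.9, 28.1 and 21.9 CPM in control and 15.9, 12.5 and 15.7 CPM in cold mice. All cold values were below all control values. The means were 24.9 ± 3.10 CPM and 14.7 ± 1.91 CPM (SD, n = 3 each), 1.69-fold lower with a log2 difference of -0.76 and a standard error of 0.20 (adjusted p = 0.00739, edgeR). Unlike those of Clpx and Spg7, this call was not kept in every alternative: it was lost on the second flow cell alone (log2 difference -0.34, adjusted p = 0.601), with a muscle covariate (adjusted p = 0.0616), over protein-coding transcripts only (adjusted p = 0.0681) and in DESeq2 (adjusted p = 0.171).

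Htra2 is also the member whose reads are hardest to assign. The gene (chr6:83051266-83055273, minus strand) shares 753 exon bases with Aup1 and 535 with Loxl3 on the opposite strand, and the strand used in counting is not given in the sources used here. Aup1, a lipid droplet protein, averaged 64.9 ± 7.17 CPM in control against 81.2 ± 4.85 CPM in cold mice (SD, n = 3 each), the opposite direction to Htra2. Htra2-201, the main coding form, had 80 and 53 reads in the groups and did not pass (log2 difference -0.58, adjusted p = 0.135, edgeR). Htra2-209, a retained-intron form that shares 545 bases with an Aup1 transcript, had 47 and 22 reads (log2 difference -1.08, adjusted p = 0.0426, edgeR) and lost the call in 7 of the alternatives, among them those without control mouse 2 (adjusted p = 0.131), control mouse 9 (adjusted p = 0.2), cold mouse 11 (adjusted p = 0.228) or cold mouse 15 (adjusted p = 0.0763).

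**Figure D3:**
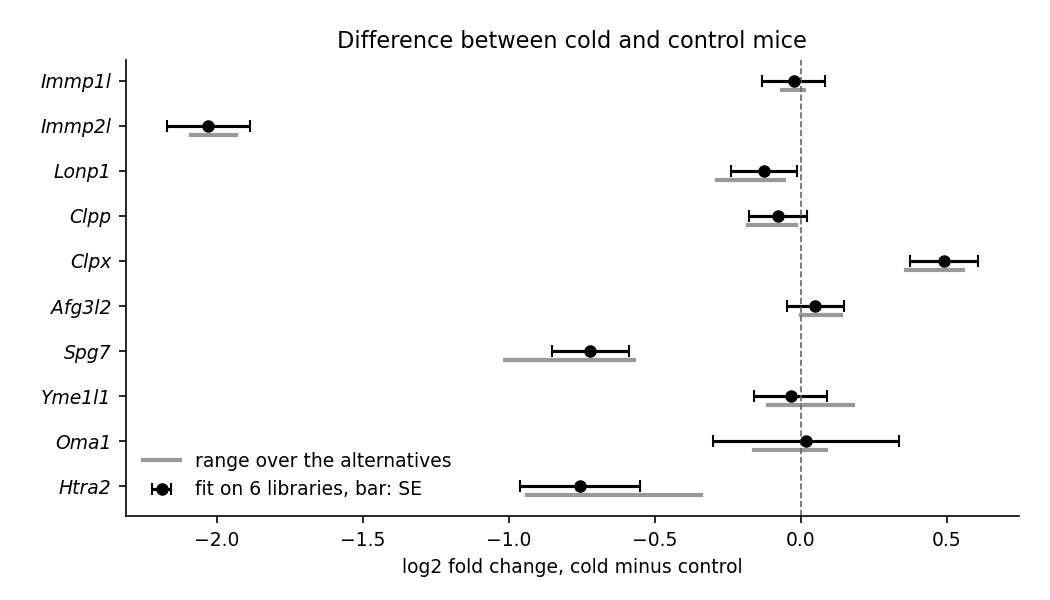
Log2 difference between cold and control mice for each gene (points, with the standard error of the edgeR fit) and the range over the alternative settings (grey lines under the points). Immp2l stands apart at -2.03, Spg7 and Htra2 are lower and Clpx is higher, and the range of Htra2 reaches -0.34.

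The muscle covariate was the mean log2 CPM of the muscle markers in each library. With it, the log2 differences were -2.03 for Immp2l, 0.45 for Clpx (adjusted p = 0.0386), -0.80 for Spg7 (adjusted p = 0.00125) and -0.705 for Htra2 (adjusted p = 0.0616) in edgeR. Other cell markers also moved with the groups. Of 6 white adipocyte markers tested, 3 (Npr3, Retn and Nnat) were higher in the cold. The summed level of the list was 116.3 to 178.1 CPM in control and 316.2 to 347.8 CPM in cold libraries. Npr3 alone rose from a mean of 58.7 to 187.1 CPM. Lep went the other way, from a mean of 11.06 to 4.73 CPM, and did not pass (adjusted p = 0.558, edgeR). It was picked for mention after its values were seen. Hoxc9 and Tcf21 had 0 reads throughout. Of 8 fibroblast markers tested, 3 collagen genes were lower (summed level 291.6 to 353.1 against 261.9 to 319.7 CPM). Lum was also lower and Dcn, Dpt, Pi16 and Cd34 were higher, without passing (Dcn adjusted p = 0.0563, edgeR). Of 8 endothelial markers tested, Kdr was higher (286.3 to 291.3 against 325.6 to 351.1 CPM). Tek and Tie1 were lower (adjusted p = 0.0508 and 0.197, edgeR) and the rest higher, all without passing. Macrophage markers summed to 61.0 to 84.7 against 83.1 to 115.9 CPM and Schwann cell markers to 154.5 to 206.7 against 149.3 to 181.7 CPM, with 0 of 4 and 0 of 5 tested genes past edgeR's threshold and 0 at an unadjusted p under 0.05. Of 11 brown adipocyte markers, 5 were higher and 2 lower (29790 to 33150 against 39400 to 41690 CPM). The part of these cell types in the differences of the protease genes was not tested.

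Transcript usage, the share of a gene's reads carried by each of its transcripts, could be tested for 5 members: Lonp1, Clpx, Afg3l2, Spg7 and Htra2. Each had an adjusted p of 1 in edgeR's diffSpliceDGE, with unadjusted p between 0.571 and 0.971, and 5 of 2568 genes (0.195%) passed in all. Of the 15 tested transcripts of the other 9 members, 3 passed, Clpx-201 higher and Spg7-209 and Htra2-209 lower, beside 16.9% of 11699 transcripts called, and nothing is read from this count either. Lonp1 was read as the coding Lonp1-201 and as Lonp1-202, annotated for nonsense-mediated decay. Lonp1-201 took 63.3 ± 3.29% of its reads in control and 65.0 ± 5.36% in cold mice (SD, n = 3 each). Clpp, Afg3l2, Yme1l1 and Oma1 were each read mainly as 1 form, which took between 93.9% and 98.0% of their reads. Afg3l2-203, the other tested form of Afg3l2, had 36 reads in each group, and Immp1l has 1 annotated form.

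**Figure D4:**
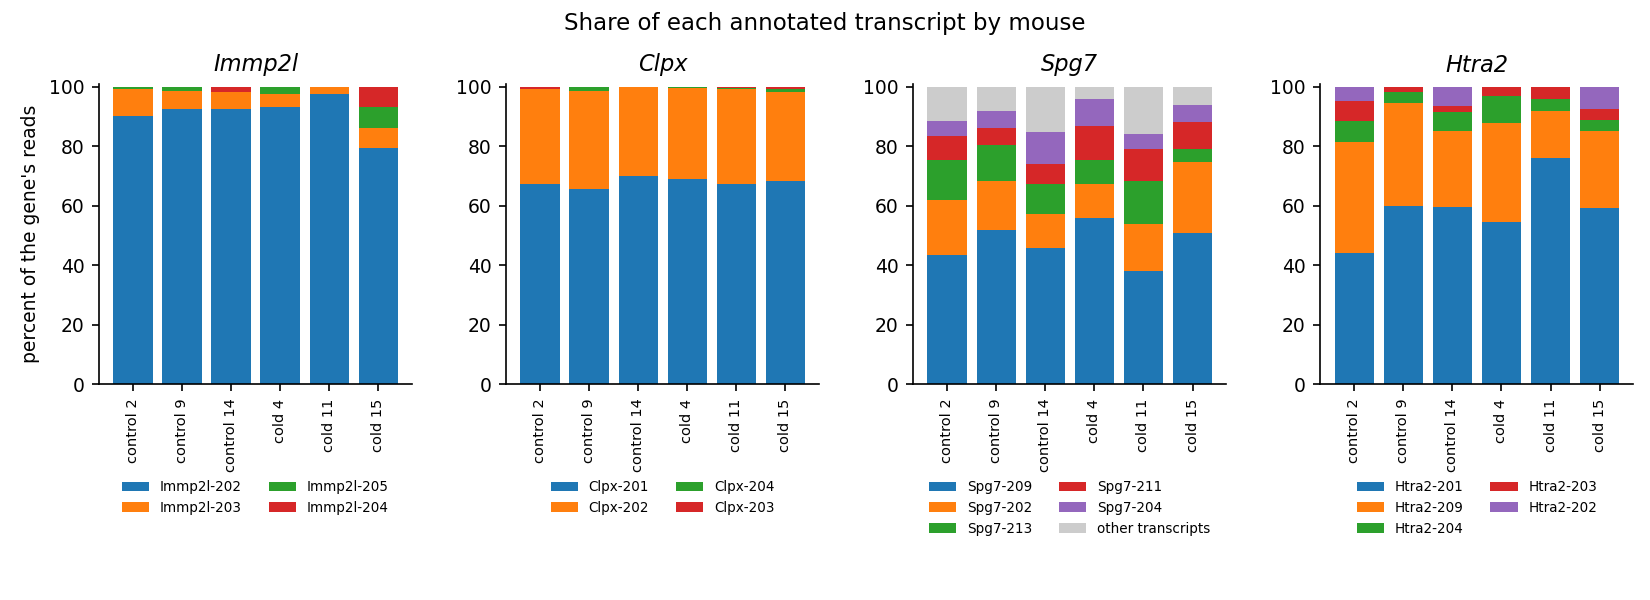
Share of the gene's reads, in percent, taken by each annotated transcript of Immp2l, Clpx, Spg7 and Htra2 in each of the 6 mice, as stacked bars with the rarer forms in grey. Clpx-201 takes a mean of 67.6% in control and 68.2% in cold mice, and Immp2l-202 takes most of the Immp2l reads in every mouse.

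Levels were set against each other per kilobase of transcript. In control mice the order was Clpp (132.8 CPM per kilobase), Immp1l (92.2), Immp2l (72.0), Afg3l2 (47.9), Clpx (26.6), Spg7 (26.5), Lonp1 (24.7), Htra2 (12.9), Yme1l1 (12.1) and Oma1 (3.69). The values of Clpx, Spg7 and Lonp1 overlapped between mice, as did those of Htra2 and Yme1l1. By this measure Immp2l in cold mice went below Afg3l2, Clpx and Lonp1, to 17.5 CPM per kilobase. There it overlapped with Spg7 at 16.1, and Clpx stood at 37.3. A nanopore read stands for 1 cDNA strand of any length, so this order depends on the division by length. By CPM without that division Afg3l2 led in control mice at 151 ± 13.6 CPM (SD, n = 3), already above Immp2l at 81.0. In control mice Immp2l then overlapped with Clpx and Lonp1. In cold mice it lay at 16.9 to 21.3 CPM, below Spg7 at 37.2 to 39.0 CPM without overlap.

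The 250 bases before the RefSeq start (GRCm38.p6) are printed for Immp2l, the member that fell most, at chr12:41023840-41024089, and for Clpx, which rose, at chr9:65294010-65294259, both on the plus strand. Capitals mark matches on either strand to GGGCGG, the SP1 box, or TGACGT, the core of cAMP response elements.
Immp2l: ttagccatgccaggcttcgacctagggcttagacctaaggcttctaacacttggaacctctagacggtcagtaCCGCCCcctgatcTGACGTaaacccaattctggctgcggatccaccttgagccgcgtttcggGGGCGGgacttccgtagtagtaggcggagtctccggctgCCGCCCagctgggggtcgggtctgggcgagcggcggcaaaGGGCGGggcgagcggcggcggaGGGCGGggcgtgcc
Clpx: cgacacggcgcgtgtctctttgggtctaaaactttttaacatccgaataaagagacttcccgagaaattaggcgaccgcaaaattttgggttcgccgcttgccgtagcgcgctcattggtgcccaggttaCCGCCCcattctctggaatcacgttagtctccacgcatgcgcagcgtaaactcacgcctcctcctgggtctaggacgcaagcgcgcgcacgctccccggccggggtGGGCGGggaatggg
Immp2l held 5 SP1 boxes and 1 TGACGT, at 164 to 159 bases before the start, and Clpx held 2 SP1 boxes and no TGACGT. Over all 32851 windows of this length, 32.7% held GGGCGG and 6.47% TGACGT. Of the 8 members with a RefSeq window, 7 held GGGCGG and Immp2l and Lonp1 held TGACGT. The GC content of these 8 windows was 55.2% to 66.0% (Immp2l 66.0%, Clpx 58.8%), all above the median of 52.4% over all windows. Other motifs were the palindrome of NRF1 (3.74% of all windows, in Oma1 and Spg7), CCGGAAG of GABP (6.91%, in Yme1l1), AAGATGG of YY1 (4.49%, in Immp1l) and CACGTG, the E-box (6.02%, in Lonp1). AAGGTCA of the ERR receptors (4.08%) and TCACNCCAC of SREBP (1.05%) were in none of the 8. These are matches of letters and not measured binding.

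Genes that share the work of the proteases were counted in lists drawn up with earlier results of these data known, and a few genes stand in more than 1 list. Each count stands beside the 20.0% of all tested genes that were called, and nothing particular to a list is read from it. Among 12 other mitochondrial peptidases tested, 1 was higher and 1 lower, with a median log2 difference of -0.14. Metap1d, which trims the first methionine of proteins made in mitochondria, fell 1.62-fold, from 36.05 ± 3.78 to 22.35 ± 1.90 CPM (SD, n = 3 each, adjusted p = 0.00224, edgeR), a call lost in DESeq2 (adjusted p = 0.105). Parl, the rhomboid protease of the inner membrane, was 1.28-fold higher (adjusted p = 0.0361, edgeR) but lost the call in 9 alternatives, with adjusted p up to 0.394, including those without control mouse 2, control mouse 9, cold mouse 4 or cold mouse 11 (0.109 to 0.135). Without cold mouse 4, 2 genes of this list were called lower, and in DESeq2 none was called in either direction.

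Of 13 scaffolds and regulators of these proteases, 2 were higher and 0 lower, with a median of 0.06. At an unadjusted p under 0.05 in edgeR there were 3, not all of them higher, and in DESeq2 1 was called higher. Ghitm, an inner membrane protein that binds the m-AAA protease, rose 1.24-fold (adjusted p = 0.00122, edgeR). Phb, the prohibitin that holds the m-AAA protease in larger assemblies, rose 1.20-fold (adjusted p = 0.0148, edgeR), which did not pass without control mouse 2 (adjusted p = 0.061), control mouse 9 (0.0845) or cold mouse 4 (0.121), on the second flow cell alone (0.107) or in DESeq2 (0.0763).

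Of 11 mitochondrial chaperones, 3 were higher and 3 lower, with a median of 0.10. Dnaja3, the mitochondrial Hsp40, rose 1.54-fold (adjusted p = 8.11e-07, edgeR), from 296.1 ± 29.0 to 457.0 ± 9.39 CPM (SD, n = 3 each). Clpb, the disaggregase of the intermembrane space, fell from 66.6 ± 5.48 to 44.1 ± 4.56 CPM (SD, n = 3 each, adjusted p = 0.000882, edgeR), and Hscb, a cochaperone of iron-sulfur cluster transfer, fell 1.62-fold (adjusted p = 0.0206, edgeR), which did not pass without control mouse 14 (0.128) or cold mouse 4 (0.142), on the second flow cell alone (0.517) or in DESeq2 (0.283). Hspa9, the mitochondrial Hsp70, rose 1.26-fold (adjusted p = 0.00143, edgeR). Without control mouse 14, without cold mouse 4, on the second flow cell alone and in DESeq2, 1 chaperone in place of 3 was called lower. The count was 2 with RLE scaling, no low-count filter, the first flow cell alone or mitochondrial reads left out. It was also 2 without control mouse 9, cold mouse 11 or cold mouse 15.

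Of 15 genes of the mitochondrial stress response only 7 had enough reads to be tested, with a median of 0.30. Of these, 1 was higher and 0 lower (4 at an unadjusted p under 0.05, not all of them higher, and none called in DESeq2). Atf4, the transcription factor of this response, rose 1.34-fold (adjusted p = 0.0106, edgeR). Its call was lost without control mouse 14 (0.0852) or cold mouse 15 (0.0802), in DESeq2 (0.118) and in 2 other alternatives. The list held 0 called genes without cold mouse 15 and 2 without control mouse 9.

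Of 19 reported substrates of the proteases tested, 5 were higher and 4 lower, with a median of 0.02. Alas1, the first enzyme of haem synthesis and a partner of ClpX, rose 1.61-fold, from 165.9 ± 12.0 to 267.4 ± 9.33 CPM (SD, n = 3 each, adjusted p = 7.74e-07, edgeR). Diablo, a protein of the intermembrane space that the inner membrane peptidase also matures, rose 1.55-fold (adjusted p = 0.000242, edgeR). Tfam, the packaging protein of mitochondrial DNA that Lonp1 degrades, rose 1.41-fold (adjusted p = 0.008, edgeR), which did not pass without control mouse 9 (0.0648) or cold mouse 11 (0.0685), in DESeq2 (0.14) and in 2 other alternatives.

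Gpd2, the glycerol phosphate dehydrogenase of the inner membrane and a known substrate of Immp2l, had 742.9, 696.1 and 778.0 CPM in control and 579.3, 591.6 and 497.3 CPM in cold mice, without overlap. It fell 1.33-fold (log2 difference -0.41, adjusted p = 0.000164, edgeR). Cyc1, which encodes cytochrome c1 of the respiratory chain and is processed by the same peptidase, had a mean of 1201 ± 12.2 CPM in the control mice, against 1011 ± 51.0 CPM after cold, a 1.19-fold fall (SD, n = 3 each, adjusted p = 0.00674, edgeR), and was picked for mention after its values were seen. The Cyc1 call did not hold without cold mouse 11 (adjusted p = 0.0541) or with a muscle covariate (adjusted p = 0.0945). Over the substrate list, 2 genes in place of 4 were called lower without control mouse 2, cold mouse 4 or cold mouse 15 and in DESeq2, and 1 with a muscle covariate, where 3 in place of 5 were higher. These are transcript levels, and protein processing was not measured.

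Of 21 import translocase genes, 5 were higher and 2 lower, with a median of 0.11. Pam16, a regulator of the import motor, rose 1.66-fold, from 52.6 ± 7.35 to 87.6 ± 3.65 CPM (SD, n = 3 each, adjusted p = 3.84e-05, edgeR). The small carriers of the intermembrane space Timm8a1, Timm8b and Timm10 rose 1.34-fold, 1.34-fold and 1.31-fold (adjusted p = 0.00828, 0.000409 and 0.00673, edgeR). Timm8a1 lost its call without cold mouse 11 (0.0676), in DESeq2 (0.116), on the first flow cell alone (0.0732) and with a muscle covariate (0.0799), and Timm10 in DESeq2 (0.0892) and on the second flow cell alone (0.422). On the first flow cell alone, with a muscle covariate and in DESeq2, 3 genes in place of 5 were called higher. Without control mouse 2, without cold mouse 4, on the second flow cell alone and in DESeq2, 0 of these genes were called lower. With 1 called lower were the fits without control mouse 14 or cold mouse 11, with a muscle covariate and with no low-count filter.

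**Figure D5:**
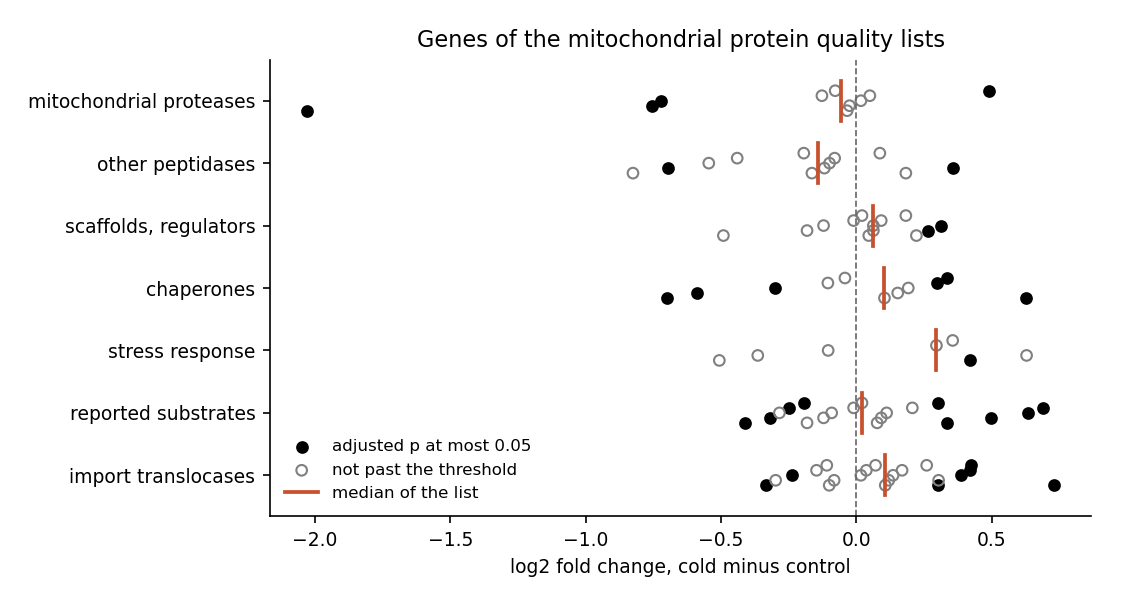
Log2 difference between cold and control mice for every tested gene of the protease set and of 6 related lists, with genes at an adjusted p of at most 0.05 filled and the median of each list as a line. The medians lie between -0.14 and 0.30, and Immp2l at -2.03 is the lowest point of all lists.

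The genes whose pattern over the 6 libraries was most like that of Immp2l were sought among 6492 tested genes with a mean of at least 10 CPM. Likeness was the root mean square difference of log2 CPM after each gene was centred on its own mean. The nearest were Car3, a carbonic anhydrase of fat and muscle (0.168), Mmd (0.178), Fcor (0.198), Sqor, the mitochondrial sulfide oxidase (0.2), and Acaca, the acetyl-CoA carboxylase that starts fatty acid synthesis (0.211). Car3 went from 1973 ± 203.3 to 445.6 ± 48.6 CPM and Sqor from 54.5 ± 5.22 to 17.1 ± 3.204 CPM (SD, n = 3 each). Among the other proteases Spg7 (0.669) and Htra2 (0.677) were the nearest and Clpx (1.241) the farthest. Each of these values describes 6 libraries in which the groups differ, so any gene that is much lower in cold mice comes out near Immp2l.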

How the data were processed

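Direct cDNA libraries were made from 100 ng of RNA after 2 rounds of poly(A) selection, per the labels' protocols. The deposited values are read counts per transcript, for each mouse and flow cell. The submitters' processing notes name minimap2 and GRCm38. How reads were counted, on which annotation and strand, is not given in the sources used here. Per the labels, homogenisation was of eWAT, but every tissue field names interscapular BAT.

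Transcripts were matched to GENCODE M21: 59371 matched, and 172 with 0.0836% of reads did not. Counts were summed over both flow cells per mouse, and per gene. Levels are CPM after TMM scaling. The test was edgeR 4.0.16 (R 4.3.3, limma 3.58.1) with filterByExpr, robust glmQLFit and Benjamini-Hochberg adjustment over all tested features at 0.05. DESeq2 1.42.0 was an alternative. Usage was tested with diffSpliceDGE over genes with at least 2 tested transcripts. The edgeR tests of genes, transcripts and usage were tried on simulated counts, and the other steps were not. Level per kilobase used the read-weighted mean transcript length. Sequence sharing was sought with minimap2 2.31 (at least 200 bases at 95%), and upstream windows came from RefSeq for 8 members.

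The members and lists were chosen with earlier results of these data known. By the rule for names, the text could name all members and their transcripts with reads (given with values for Immp2l and for the tested forms of Clpx, Spg7 and Htra2, and otherwise as shares), the neighbours of Immp2l, up to 4 called genes per functional list by size of change, and the 5 genes most like Immp2l (prior count 2). Of the list names, 4 were not in the annotation. Alternatives were RLE scaling, no low-count filter, each flow cell alone, mitochondrial reads left out, a muscle covariate, protein-coding transcripts only, DESeq2 and leaving out each mouse, 14 in all. Counts cover reads without molecular identifiers.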

Additional observations from a re-analysis of the deposited data

How the results depend on the processing

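Clpx and Spg7 kept their direction and call under all 14 alternatives, and Immp2l kept its direction. Over all genes, the second flow cell alone gave 457 higher and 432 lower of 5348 tested genes (8684 tested on both flow cells). It gave 477 higher and 456 lower of 5880 tested transcripts (11699 on both) and 3 of 1118 genes with changed usage (2568 on both). DESeq2 gave 467 higher and 353 lower genes and 483 higher and 398 lower transcripts, and the muscle covariate 543 lower genes. Differences near 0 that never passed the test changed sign: Immp1l was 0.003 with the muscle covariate and between -0.066 and 0.009 when 1 mouse was left out, Yme1l1 was 0.177 on the second flow cell and between -0.104 and 0.036 when 1 mouse was left out, and Oma1 was -0.161 with the muscle covariate and between -0.075 and 0.087 when 1 mouse was left out. The cause was not tested. Oma1 had too few reads for a test on 1 flow cell. No paired analysis was possible because the mouse numbers of the groups are not shared. The depth limits the rarer forms, since 3 reads equal 1.34 to 1.81 CPM.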
